A study of Mus musculus with 2 samples.

Results

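The genes described are the mouse ATP-binding cassette (ABC) genes, chosen by symbol: every gene on the array named Abc with a subfamily letter a to g and a number, apart from Abca1, Abcg1, Abca2 and Abcb9. This gave 46 genes with 63 probes, of 31829 gene names with 39429 probes on the array. ABC proteins use ATP to move lipids, drugs, metabolites or peptides across membranes. Most are pumps built from a pair of membrane domains and a pair of ATP-binding domains, while some carry a single domain of each kind and work as dimers. Subfamilies E and F have the ATP-binding domains but no membrane domain and act on ribosomes. In macrophages ABC genes are best known for lipid export, and elsewhere for the efflux of xenobiotics that limits what drugs reach in a cell.

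The cells were RAW264.7, a macrophage-like mouse line, with 1 array of Lamtor1 knockdown cells and 1 array of control cells. Lamtor1 anchors Ragulator on the lysosome, and the comparison was made to learn about the activity of the transcription factor TFEB without Ragulator. For both samples, the labels describe infection with a lentivirus mixture of 2 vectors expressing shRNA against Lamtor1 and then limiting dilution. The sources used here do not give the treatment of the control cells in its own right, or say whether a sample grew from 1 clone.

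With 1 array a group there was no replicate, so no difference below has a replicate check or a p-value, and each describes these 2 arrays. Of 43020 spots that were not controls, 22745 (52.9%) were well above background on the knockdown array and 22929 (53.3%) on the control array. A level here is the log2 of a probe's processed signal relative to the 75th percentile of its own array, and a difference is knockdown minus control on that scale. Lamtor1, listed under its older name 2400001E08Rik, had a level of -0.43 in the knockdown and 4.10 in the control, so its knockdown signal was 4.34% of the control signal. All 7 macrophage markers found by name were well above background on both arrays, with a summed level of 7.76 in the knockdown and 8.29 in the control. Of these, 5 were lower and 2 higher in the knockdown, with a median difference of -0.45. At 2-fold or more, Emr1 was 2.95-fold lower and Cd68 2.33-fold higher. None of 4 epithelial markers was above background on either array. Of the other lists, 1 of 5 B cell, 1 of 5 fibroblast and 2 of 5 T cell markers were above background on at least 1 array. The summed level of 5 osteoclast markers was 5.70 in the knockdown and 2.82 in the control, and the part of this in the results below was not tested. The protease gene Ctsk was at 5.56 in the knockdown and 1.30 in the control, and it was the 1 marker of the list at 2-fold or more higher. The other markers had differences of 0.57 for Acp5, 0.14 for Oscar, -0.85 for Nfatc1 and -1.24 for Calcr, which was above background in the control only.

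Where a gene had several probes above background, its brightest is reported. Of the 46 ABC genes, 30 had a probe that was well above background on 1 array or both, and these are called measured. They comprised 23 genes above background on both arrays, 5 on the knockdown array only and 2 on the control array only. The other 16 genes, not well above background on either array, were Abca4, Abca6, Abca8a, Abca13, Abca14, Abca15, Abca16, Abcb5, Abcb11, Abcc2, Abcc6, Abcc9, Abcc12, Abcg3, Abcg5 and Abcg8. A gene detected on a single array has a bound in place of a fold ("at least N-fold"). Its dim side was set to the lowest detected level of that array, or to the probe's own level where that was higher. Such a bound holds on this scale only, and the fold can be smaller under another background correction.

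Most measured ABC genes lay within 2-fold between the arrays, and 1 gene, Abcg2, stood far outside. At 2-fold or more, 5 of the 30 genes were higher in the knockdown, where 8.73% of all 17522 measured gene names were. In the other direction 2 of the 30 were at least 2-fold lower, beside 8.65% of all measured names. Counted by their bounds, 3 ABC genes stood 2-fold or more higher in the knockdown, beside 7.33% of all names, and 1 stood lower, beside 6.92%. Among the 23 ABC genes above background on both arrays, only Abcg2 was 2-fold or more higher, beside 5.80% of all such names, and no gene was 2-fold lower, beside 5.38%. The median difference of the 30 genes was 0.07, beside -0.07 for all measured names. Of the 30, 18 had a difference above 0, which is 60% beside 43.5% of all names.

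**Figure D1:**
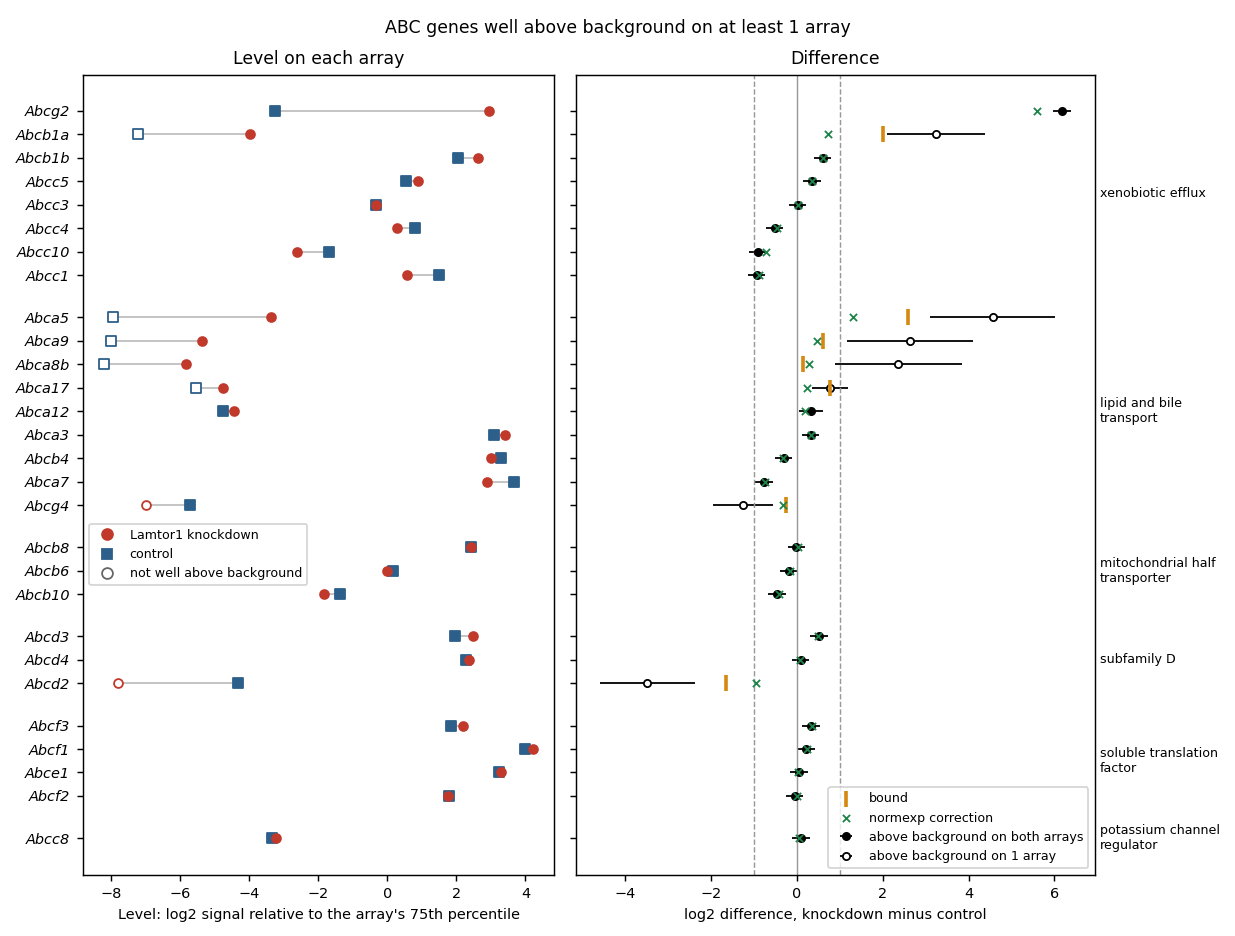
Level of 28 of the 30 measured ABC genes on the Lamtor1 knockdown array (circles) and the control array (squares), and its log2 difference with the scanner's own error as a bar; open symbols are values not well above background. Abcg2 sits at 6.17 while the other plotted genes above background on both arrays lie between -0.94 and 0.60. The differences of genes above background on 1 array shrink under normexp correction (green crosses). They also shrink to their bounds (orange ticks), except for Abca17, whose bound equals its difference. Rows are different probes, so levels are not comparable between rows.

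**Figure D2:**
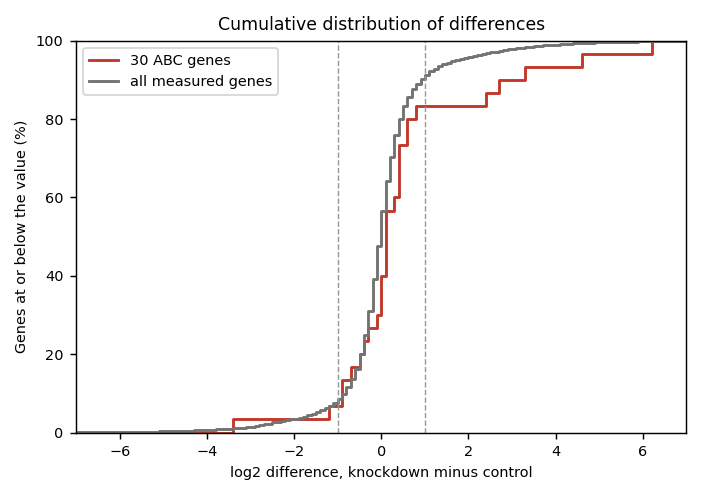
Share of genes at or below each log2 difference (knockdown minus control) for the 30 measured ABC genes and for all 17522 measured gene names, with dashed lines at 2-fold. Both curves climb steeply near 0, where 23 of the 30 ABC genes lie within 2-fold, and the ABC curve stays below the other from about 1 to 6 because 5 of its 30 genes are at least 2-fold higher.

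The probe of Abcg2 is shown because the largest difference rests on it alone. It lies at chr6:58642312-58642371 on the plus strand of mm9, the build of the array files, and 1 of its 3 forward reading frames holds no stop codon.
Abcg2 probe A_55_P1996504: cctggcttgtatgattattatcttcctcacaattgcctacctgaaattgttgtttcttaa

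Abcg2 encodes the breast cancer resistance protein, a dimeric pump that moves urate, porphyrins and many drugs out of cells. Its intensity was 9601 on the knockdown array and 124 on the control array, a level of 2.94 in the knockdown and -3.24 in the control. The gene was well above background on both arrays and thus dim but detected in control cells. The difference of 6.17 ± 0.21 (scanner error, 1 spot on each array) is 72.2-fold, and Abcg2 ranked 8 from the highest among the 15702 gene names above background on both arrays. With normexp background correction it was 48.6-fold higher. The scanner error comes from the extraction software and covers the reading of the spot, not cultures or labelling.

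The RefSeq table gives Abcg2 3 starts, and the array does not tell which was in use. The windows of 250 bases before to 50 after each of them in GRCm38.p6 are printed to show how different these starts are. Letters in capitals match GGGCGG (the GC box) or TATAAA (the TATA box) on either strand.
Abcg2 chr6:58584283-58584582 plus strand: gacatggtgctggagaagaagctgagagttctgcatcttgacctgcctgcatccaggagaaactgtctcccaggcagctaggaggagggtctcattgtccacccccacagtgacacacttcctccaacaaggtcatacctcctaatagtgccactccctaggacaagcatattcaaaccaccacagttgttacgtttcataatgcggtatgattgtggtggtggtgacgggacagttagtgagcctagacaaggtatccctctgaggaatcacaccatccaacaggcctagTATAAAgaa
Abcg2 chr6:58596422-58596721 plus strand: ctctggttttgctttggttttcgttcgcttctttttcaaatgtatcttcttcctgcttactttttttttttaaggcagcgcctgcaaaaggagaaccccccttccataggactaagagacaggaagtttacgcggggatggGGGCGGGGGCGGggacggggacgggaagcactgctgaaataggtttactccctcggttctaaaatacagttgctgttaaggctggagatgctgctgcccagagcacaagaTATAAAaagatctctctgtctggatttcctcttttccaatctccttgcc
Abcg2 chr6:58640296-58640595 plus strand: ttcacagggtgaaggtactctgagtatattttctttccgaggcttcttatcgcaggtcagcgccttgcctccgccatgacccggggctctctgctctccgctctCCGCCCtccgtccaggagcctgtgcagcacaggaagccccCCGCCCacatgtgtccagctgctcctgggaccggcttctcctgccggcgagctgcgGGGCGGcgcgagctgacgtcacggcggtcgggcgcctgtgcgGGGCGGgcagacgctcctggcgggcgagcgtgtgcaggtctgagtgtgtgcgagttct
The third window is the richest in G and C, at 67.0% with 28 CpG sites and 4 GC boxes. The second has 48.0% with 10 CpG sites, and its 2 GC boxes are adjacent, beginning 109 and 103 bases before the start, while a TATAAA begins 2 bases after it. The first has 50% with 3 CpG sites, and its 1 match is a TATAAA that begins 42 bases after the start. None of the 3 held CACGTG, the E-box core that TFEB and related factors bind, or TGACNNNGC, the core of the antioxidant response element. The palindrome CACGTG was in 7.15% and TGACNNNGC in 12.4% of all 32851 promoter windows of this length. A match is a description of letters, not of binding.

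The other genes of xenobiotic efflux did not share the size of the Abcg2 difference. Of these 11 genes 7 were measured, and 1, Abcb1a, was 2-fold or more higher, beside 8.73% of all names. None was 2-fold lower, beside 8.65%, and the median difference was 0.02. Abcb1a was above background on 1 array only, where 34.0% of all names were 2-fold or more higher. Abcb1a and Abcb1b encode the mouse P-glycoproteins, broad drug pumps that are a single gene in humans. Abcb1a was at -3.96 in the knockdown and -7.20 in the control, where it was not well above background, which makes it at least 4.02-fold higher, or 1.66-fold after normexp correction. Abcb1b was bright on both arrays, at 2.63 in the knockdown and 2.03 in the control, a difference of 0.60. The paralogues thus both had values above 0, but the one at 2-fold or more was the dim one. The labels on the probes do not tell whether each probe is read by its paralogue, and this was not tested.

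The window before Abcb1a is shown as the other efflux gene at 2-fold or more. Capitals mark TGACNNNGC, read on the opposite strand, which begins 27 bases after the start.
Abcb1a chr5:8566841-8567140 plus strand: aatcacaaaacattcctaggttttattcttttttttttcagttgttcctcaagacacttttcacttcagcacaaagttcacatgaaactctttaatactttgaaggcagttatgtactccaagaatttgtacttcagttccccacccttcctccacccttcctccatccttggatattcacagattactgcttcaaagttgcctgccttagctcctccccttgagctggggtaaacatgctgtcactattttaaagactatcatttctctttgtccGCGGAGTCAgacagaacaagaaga
At 40.3% G and C with 2 CpG sites it differs in make-up from the third Abcg2 window.

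The multidrug resistance-associated proteins of subfamily C export anionic conjugates, and all 6 measured members stayed within 2-fold, 5 of them efflux pumps. Abcc1, an exporter of glutathione conjugates and leukotriene C4, was at 0.56 in the knockdown and 1.5 in the control, a difference of -0.94 ± 0.20 (scanner error). Abcc10 had levels of -2.60 in the knockdown and -1.70 in the control, with a difference of -0.90. These 2 genes came nearest to 2-fold among the lower values. Abcc4, which exports cyclic nucleotides and prostaglandins, was at 0.28 in the knockdown and 0.80 in the control. Abcc3, an exporter of bile salts and glucuronides, was at -0.32 in the knockdown and -0.34 in the control, and its difference of 0.02 was -0.02 when the scale was set over spots above background on both arrays.

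Abcc5, an exporter of cyclic nucleotides, had the most measurements. Its brightest probe was spotted 10 times, and its level was 0.89 ± 0.08 on the knockdown array and 0.53 ± 0.08 on the control array (SD, n = 10 spots). The spot differences ran from 0.32 to 0.41, with a mean of 0.36 ± 0.03 (SD), so every spot was brighter on the knockdown array. Its 3 other probes were also higher in the knockdown, and all 4 probes spanned 0.36 to 0.91. Repeated spots measure the array surface and the scan, not the cells. The difference, though larger than the spot spread, stayed under 2-fold. Abcc8, the sulfonylurea receptor that regulates a potassium channel, was at -3.22 in the knockdown and -3.32 in the control, a difference of 0.10.

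Lipid and bile transport genes, mostly of subfamily A, had the most members and the widest spread apart from Abcg2. Of 19 genes 9 were measured, with 3 higher and 1 lower at 2-fold or more, beside 8.73% and 8.65% of all names, and a median of 0.34. All 4 of these, and Abca17, were above background on 1 array only, where 34.0% of all names were higher and 36.9% lower by 2-fold or more. Abca5, a transporter found in lysosomes and late endosomes, was at -3.37 in the knockdown and -7.93 in the control. That is at least 6.06-fold higher, or 2.50-fold after normexp correction, and its 2 probes gave 4.56 and 3.85. Abca9 was at -5.36 in the knockdown and -7.99 in the control, at least 1.53-fold higher. Abca8b was at -5.83 in the knockdown and -8.19 in the control, at least 1.1-fold higher. Abca9 and Abca8b were thus under 2-fold by their bounds and with normexp, at 1.39-fold and 1.23-fold. Abca17 was at -4.74 in the knockdown and -5.52 in the control. Its bound of 1.71-fold higher uses its own control level and so equals its plain difference, and with normexp it was 1.17-fold.

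The second Abca5 probe is shown because it reads the gene at another place than the brightest probe. It has 60 bases but maps to chr11:110136682-110137781 on the minus strand of mm9, a span of 1100 bases, so its letters are not contiguous in the genome, and 1 of its 3 forward frames holds no stop codon.
Abca5 probe A_52_P519653: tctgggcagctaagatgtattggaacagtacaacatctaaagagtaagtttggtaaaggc

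Abca5, Abca9 and Abca8b lie in 1 block of ABC genes on chromosome 11. In the gene order of GRCm38.p6 the block runs Abca8b, Abca8a, Abca9, Abca6, Abca5, and Abca8a and Abca6 were not well above background on either array. Every measured gene of the block was thus detected in the knockdown only, as were 854 of all 17522 measured names. Such genes count as measured through that array alone, and Abca9 and Abca8b were under 2-fold by their bounds. Of the 5 protein-coding genes on each side, 7 were measured, with a median difference of 0.10. Map2k6, the neighbour of Abca5, was at -0.25 in the knockdown and -1.46 in the control, 2.32-fold higher. Fam20a, the nearest measured gene on the Abca8b side, was at -5.00 in the knockdown and -7.44 in the control, at least 1.96-fold higher. Wipi1, on the same side, was 2.07-fold lower, so the flanking genes did not share 1 direction.

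The start windows of Abca5 and Abca8b, at the ends of the block, are printed for comparison. Capitals mark the GC box, the E-box core and the antioxidant response element core named above, on either strand.
Abca5 chr11:110337667-110337966 minus strand: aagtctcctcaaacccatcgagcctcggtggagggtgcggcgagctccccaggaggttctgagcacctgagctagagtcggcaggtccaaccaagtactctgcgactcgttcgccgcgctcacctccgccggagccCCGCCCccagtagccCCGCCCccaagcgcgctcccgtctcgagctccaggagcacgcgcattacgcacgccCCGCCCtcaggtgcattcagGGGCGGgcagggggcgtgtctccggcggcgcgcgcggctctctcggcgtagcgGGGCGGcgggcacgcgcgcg
Abca8b chr11:109995796-109996095 minus strand: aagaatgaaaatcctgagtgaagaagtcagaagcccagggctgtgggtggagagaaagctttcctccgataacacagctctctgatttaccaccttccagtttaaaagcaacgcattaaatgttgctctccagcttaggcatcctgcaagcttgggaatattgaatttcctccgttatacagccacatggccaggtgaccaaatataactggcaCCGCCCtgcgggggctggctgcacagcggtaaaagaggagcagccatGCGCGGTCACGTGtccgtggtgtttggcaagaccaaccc
The Abca5 window had 72.3% G and C, 40 CpG sites and 5 GC boxes. The Abca8b window had 51.3%, 10 CpG sites and 1 GC box, and its CACGTG, which begins 19 bases after the start, overlaps a TGACNNNGC match that begins 12 bases after it. The window of Abca8a, not above background, also held a CACGTG, while that of Abca9 held no motif searched.

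**Figure D3:**
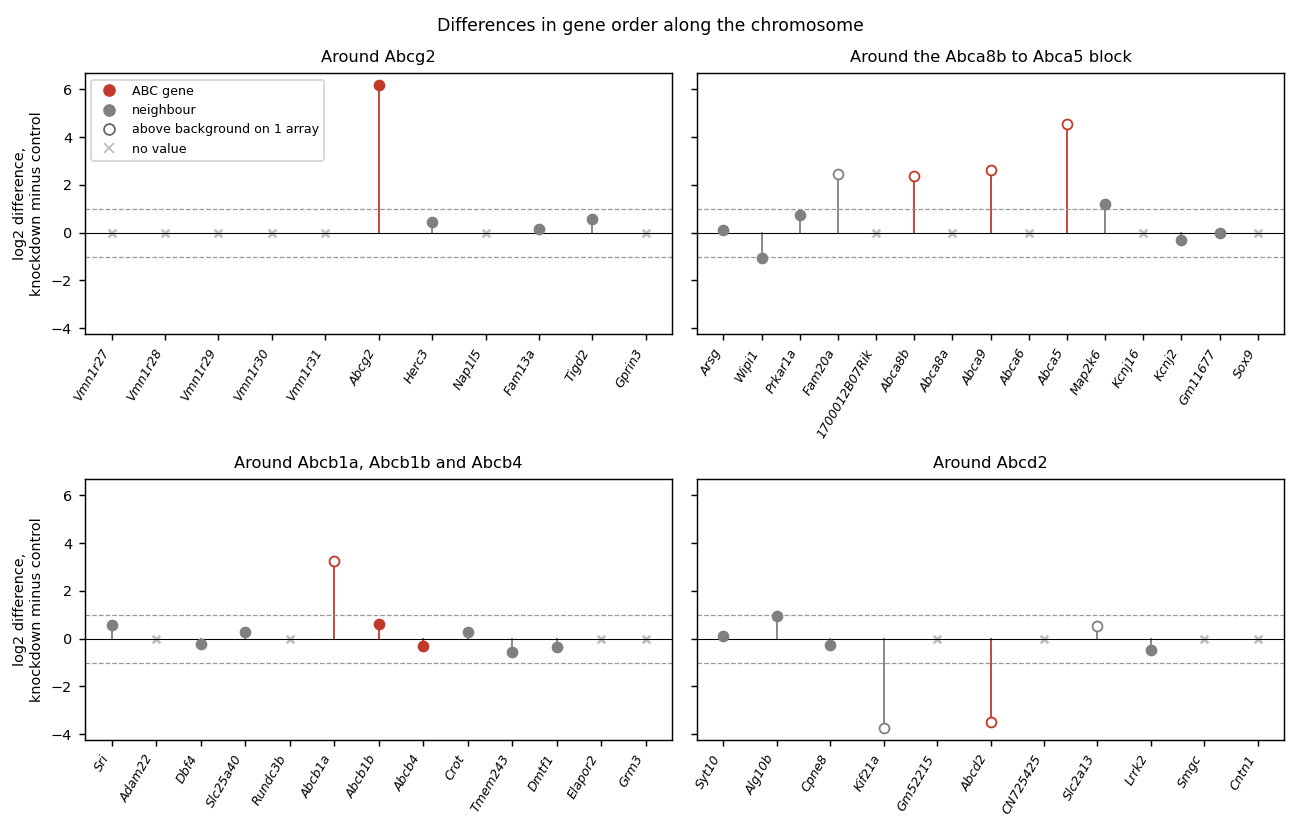
Log2 difference (knockdown minus control) of ABC genes (red) and of the 5 protein-coding genes on each side (grey), in gene order of GRCm38.p6 and not to scale along the chromosome; open circles are genes above background on 1 array, and grey crosses have no value. Abcg2 at 6.17 stands beside neighbours at 0.15 to 0.59, the Abca8b to Abca5 block has 3 values from 2.36 to 4.56, and Abcd2 at -3.49 lies near Kif21a at -3.75. The 3 block genes, Abcd2 and Kif21a were above background on 1 array only. By their bounds the block genes were at least 1.10-fold to 6.06-fold higher, Abcd2 at least 3.14-fold lower and Kif21a at least 9.08-fold lower.

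The remaining lipid genes were within 2-fold except Abcg4. Abca3, which loads surfactant lipids into lamellar bodies, was at 3.41 in the knockdown and 3.09 in the control, a difference of 0.32. Abca7, a phospholipid transporter linked to phagocytosis, was at 2.89 in the knockdown and 3.66 in the control, 1.70-fold lower. Abca12, the lipid transporter of skin barrier formation, was at -4.42 in the knockdown and -4.76 in the control. Abca3 and Abca12 were thus slightly higher and Abca7 lower, with differences larger than the scanner error of 0.20 to 0.28. With normexp the difference of Abca12, a dim gene, was 0.19, smaller than its scanner error of 0.28 on the reported scale. Abcb4, which moves phosphatidylcholine into bile, was at 2.99 in the knockdown and 3.30 in the control, a difference of -0.31. Abcg4, a sterol transporter, was at -6.97 in the knockdown, not well above background, and -5.72 in the control, at least 1.18-fold lower. Its signal in control cells was near the lowest value counted as above background.

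The mitochondrial transporters showed no difference of 2-fold, and all 4 of 4 were measured. Abcb10, which acts in haem synthesis of red cell precursors, was at -1.83 in the knockdown and -1.38 in the control, a difference of -0.46. Abcb6, a porphyrin transporter, was at -0.02 in the knockdown and 0.16 in the control. Abcb8 was at 2.43 in the knockdown and 2.44 in the control. The difference of Abcb8, below 0 as reported, was above 0 after scaling to the median, with normexp or as the median over its probes. Genes of haem synthesis, a list of related function, gave 10 of 11 measured, none at 2-fold, with a median of 0.27. Iron-sulfur cluster assembly genes gave 11 measured, none at 2-fold, with a median of 0.01. Of all measured names, 8.73% were 2-fold or more higher and 8.65% lower.

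Subfamily D imports fatty acids into peroxisomes, apart from Abcd4, a lysosomal transporter of vitamin B12. Abcd2, which takes up very long-chain and polyunsaturated fatty acids, was the exception among its 4 members. It was at -7.79 in the knockdown, not well above background, and -4.31 in the control, at least 3.14-fold lower (1.94-fold with normexp). Abcd3, the major peroxisomal membrane transporter, was at 2.47 in the knockdown and 1.95 in the control, a difference of 0.52. Abcd4 was at 2.37 in the knockdown and 2.28 in the control. Of 21 peroxisome genes 19 were measured and none reached 2-fold, beside 8.73% higher and 8.65% lower of all names, with a median of 0.21. Among the neighbours of Abcd2, 6 of 10 were measured. Kif21a, the second gene from Abcd2, was at -6.53 in the knockdown, not well above background, and -2.78 in the control, at least 9.08-fold lower, while the other 5 lay within 2-fold.

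The 4 soluble proteins of subfamilies E and F stayed within 2-fold. Abce1, which splits ribosomes after termination, was at 3.30 in the knockdown and 3.25 in the control. Abcf1, a factor of translation initiation, was at 4.21 in the knockdown and 3.99 in the control, and its second probe gave -0.004. Abcf2 was at 1.75 in the knockdown and 1.80 in the control. Abcf3 was at 2.18 in the knockdown and 1.86 in the control, the widest of the 4 differences at 0.33. The sign was not settled for Abce1, which was below 0 after quantile normalization, nor for Abcf2, which was above 0 after median scaling or normexp. Of 13 genes of ribosome recycling and control by the kinase GCN2, all were measured, with a median of -0.19. None reached 2-fold, beside 8.73% higher and 8.65% lower of all names.

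Beyond Abcg2, 22 genes were above background on both arrays and their largest fold was 1.92. The scanner error of their differences ran from 0.20 to 0.28, and 13 differences exceeded their own error, 7 higher and 6 lower in the knockdown. The same count was not made over all names, so it does not set the ABC genes apart. With the sign ignored, the median difference of the 22 genes was 0.32, beside 0.30 for all names above background on both arrays. For the 7 genes above background on 1 array, the error ran from 0.41 to 1.48. Thus 6 of the 7 ABC genes at 2-fold or more carried the widest errors.

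Nuclear receptors and sensors that regulate ABC genes were mixed. Of 15 listed 13 were measured, with 1 higher and 2 lower at 2-fold or more, beside 8.73% and 8.65% of all names, with a median of 0.01. Nr1h3, which encodes the oxysterol receptor LXR alpha, was at 0.82 in the knockdown and -0.21 in the control, 2.03-fold higher (1.95-fold with normexp). Ahr, the receptor for dioxin-like compounds, was at -7.93 in the knockdown, not well above background, and -2.27 in the control, at least 12.9-fold lower (4.91-fold with normexp). Esr1, the oestrogen receptor, was at least 1.47-fold lower. These last 2 were above background on 1 array only, where 36.9% of all names were 2-fold or more lower. They were named after their values were seen. Pparg, the fatty acid sensor, was at -3.34 in the knockdown and -2.42 in the control, and Nfe2l2, the NRF2 factor of the antioxidant response, was at 3.98 in the knockdown and 3.26 in the control. Both stayed within 2-fold and were likewise named after their values were seen.

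Enzymes that make or use glutathione and other conjugates feed the subfamily C pumps. Of 20 listed 16 were measured, with 3 higher and 1 lower at 2-fold or more, beside 8.73% and 8.65% of all names, and a median of -0.11. Gstm5, a glutathione transferase gene, was at -1.38 in the knockdown and -5.93 in the control, 23.5-fold higher (6.84-fold with normexp). Gstp1, also a glutathione transferase gene, was at -3.20 in the knockdown and 0.09 in the control, 9.83-fold lower. Gstm1 was at 4.69 in the knockdown and 2.90 in the control, 3.46-fold higher. The transferases thus lay on both sides. Near-identical members of this family may share probes, which was not tested.

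The list of uptake carriers holds mostly genes that bring xenobiotics and nucleosides into cells, but also Slc47a1, an exporter. Of its 13 genes 7 were measured, with 3 higher and none lower at 2-fold or more, beside 8.73% and 8.65% of all names. Their median was 0.68. With normexp 2 were higher, beside 5.15% of all names, and the median was 0.46. Over the 6 genes above background on both arrays 2 were higher, beside 5.80% of all such names, and the median was 0.35. Slc22a18 was at -0.32 in the knockdown and -3.13 in the control, 7.02-fold higher (5.15-fold with normexp). Slc22a4, a carrier of ergothioneine and carnitine, was at -2.79 in the knockdown and -4.47 in the control, 3.22-fold higher (2.01-fold with normexp). Slc47a1 was the third, detected in the knockdown only, at least 2.42-fold higher but 1.58-fold with normexp, and was named after its value was seen. Of ABC genes outside the symbol rule, Tap1 was 2.73-fold lower, Abcb9 2.15-fold higher and Abca1 5.78-fold higher (3.20-fold with normexp). With normexp Abcb9 was 1.66-fold higher. Tap1 feeds peptides to class I antigen presentation, and its level was -2.84 in the knockdown and -1.39 in the control.

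**Figure D4:**
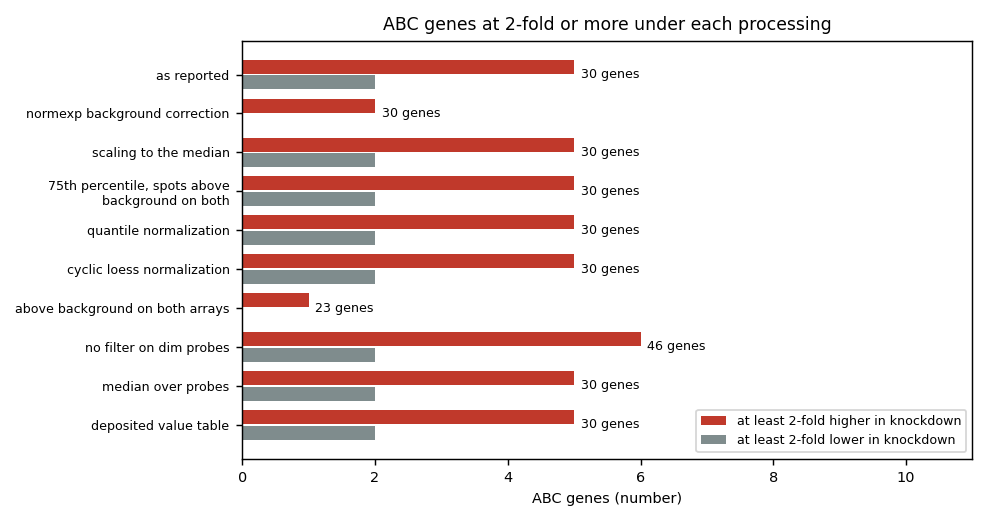
Number of ABC genes at least 2-fold higher (red) or lower (grey) in the knockdown than in the control under each processing, with the number of genes that had a value. Counts stay at 5 higher and 2 lower under the scaling changes and are 2 and 0 with normexp correction and 1 and 0 for genes above background on both arrays.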

How the data were processed

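RNA of 1 Lamtor1 knockdown and 1 control sample of RAW264.7 cells was read on 1-colour Cy3 arrays, 200 ng each per the labels. The authors deposited scanner files whose processed intensity is linear, background-corrected and detrended per the file headers, and the submitters' processing notes name Agilent Feature Extraction 10.7.3.1. The deposited value table holds the same intensity rounded, with ratios of 0.995 to 1.005. Its column medians over spots that are not controls were 34.4 for the knockdown and 34.2 for the control. Scale is linear and uncentred.

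Spots flagged as outliers, 177 on the knockdown and 162 on the control array, were left out, none of them on an ABC probe. No spot was saturated. Per the file headers the software replaces intensities that are not above background by surrogate values, as for 21 ABC spots on the knockdown array and 26 on the control array. Levels are log2 processed intensity less that of the 75th percentile of each array, which was 1255 for the knockdown and 1172 for the control. Repeated spots were averaged, and a probe counted as above background when more than 50% of its spots did. Genes are the names in the files, and each took its brightest probe above background on at least 1 array. Differences were counted at 2-fold. No test was possible. The number of arrays limits the precision. For 214 probes spotted several times the median SD of a spot difference was 0.04 in log2. Levels of different probes are not compared.

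Of the 30 measured ABC genes, 28 are named with values, and the values of the other 2 are counted in the totals but not reported here. From each related list, up to 3 genes at 2-fold or more above background on both arrays are named. The members, lists and rules were chosen with earlier results of these data known. Sequences come from the array files (mm9) and from RefSeq windows of GRCm38.p6, which held 42 windows for 35 of the 46 genes. The position of probes within exons or untranslated regions was not used here. All 46 symbols were found in the RefSeq gene table, which gave the gene order. Alternatives were normexp with offset 50 (limma 3.58.1, R 4.3.3), other scalings, filters and probe summaries. The calculation was tested on simulated data. Python 3.11.15, numpy 2.4.6 and pandas 2.3.3 were used.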

Additional observations from a re-analysis of the deposited data

How the results depend on the processing

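The counts of 5 ABC genes higher and 2 lower did not change under median scaling, a 75th percentile over spots above background on both arrays, quantile or cyclic loess normalization, the median over probes, or the deposited value table. With normexp they were 2 and 0, for genes above background on both arrays 1 and 0, and with bounds 3 and 1. Of the 7 genes, 6 were above background on 1 array only. On the array where they were not, their processed intensities ran from 4.02 (Abca8b, control) to 10.0 (Abcg4, knockdown). The normexp run used an offset of 50, a constant added to every corrected intensity. Such a constant makes the fold of a dim spot smaller. How much of the drop in the normexp counts came from the offset was not tested. Without a filter on dim probes 6 were higher, Abcb5 being the addition. At 1.5-fold 7 were higher and 5 lower, and at 4-fold 5 were higher and 1 lower. Of all measured names, 95.8% had a log2 difference at or below 2, which is 4-fold, and 3.58% one at or below -2. The share of all names at 1.5-fold was not counted. Just past it, 85.6% of all names had a log2 difference at or below 0.6 and 16.3% one at or below -0.6. Apart from Abcg2, the genes at 4-fold were above background on 1 array only. The median of 0.07 was 0.16 after median scaling, 0.018 for genes above background on both arrays, which leaves 23 genes, and -0.0038 without a filter, which adds 16 genes. No gene at 2-fold or more changed sign under any alternative run. The sign of Abcb8, Abcc3, Abce1 and Abcf2, all near 0, changed under at least 1. For all names the normexp counts were 902 higher and 712 lower, against 1529 and 1516 as reported, and without a filter 2154 and 2453. For names above background on both arrays they were 912 and 844. No paired analysis was possible because each group has 1 array.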

Other observations

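Start windows of ABC genes above background on both arrays had a higher median G and C content than those of other ABC genes. The median G and C content was 61.8% over 22 windows of genes above background on both arrays, 51.3% over 5 windows of genes above background on 1 array and 53.0% over 15 windows of genes not above background, beside 52.7% over all 32851 windows. The median number of CpG sites was 21, 10 and 6 in the same order, beside 7. Windows of 1 gene are not independent of each other, and 11 of the 46 genes have no window here. The same medians were not taken over windows of all detected genes, so no trait particular to ABC genes is shown.

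Of the motifs searched, GGGCGG was in 18 of 42 ABC windows (42.9%), beside 35.7% of all windows. TATAAA was in 6 (14.3%), beside 13.6%. CACGTG was in 5 (11.9%), beside 7.15%, in the windows of Abca15, Abca8a, Abca8b, Abcc4 and Abcf1. TGACNNNGC was in 7 (16.7%), beside 12.4%. The PPAR direct repeat was in none, beside 0.04% of all windows.

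A pair of overlapping probes read Abcc8 differently. They share 47 of 60 bases. One was well above background on both arrays, and the other was not on either. For Abcg4 a pair that shares 44 bases behaved alike in this respect: one probe was above background on the control array and the other on neither.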
